A study of Homo sapiens with 4 samples.

Results

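The genes described here carry out or report the unfolded protein response and the ATF4 branch of the stress response, in SAS cells with and without knockdown of AEG-1 (gene symbol MTDH, also called LYRIC), a protein of the endoplasmic reticulum (ER) membrane. The members were the 40 genes of a list of known pathway genes, chosen by name: 12 ER chaperones and folding enzymes, 4 genes of ER-associated degradation (ERAD), 6 stress sensors and their transcription factors, 10 genes of ATF4 and its stress targets, and 8 genes of amino acid supply. The list was drawn up with earlier results of these data known. Of the 40 genes, 39 were matched to a probe through the transcript accession. All 39 were tested, among 16582 genes in all. SLC3A2, the heavy chain of the LAT1 and xCT amino acid transporters, was not matched to a probe, and only its promoter was looked at. A probe of a listed gene under an older or other accession would have been missed. SAS is a tongue squamous carcinoma cell line. SB cells carried the lentiviral pLKO.1-LYRIC shRNA-B vector and SCt control cells the pLKO.1 vector alone by the labels, whereas the methods call the control a scrambled shRNA. Both were stable clones, selected with puromycin at 2 µg/ml for 14 days and kept in it, and how many clones or cell isolates stood behind each group was not stated. On each of 4 arrays, labelled as biological replicates, SB cDNA was red and SCt cDNA green, with 0 dye swaps, so that a dye effect of a single probe cannot be told apart from an effect of the shRNA.

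Proteins that enter the ER are folded by chaperones such as BiP and by disulfide isomerases, and those that fail are returned to the cytosol for destruction. When unfolded proteins build up, the sensors IRE1, PERK and ATF6 respond: IRE1 splices XBP1 mRNA, ATF6 is cleaved to a transcription factor, and PERK phosphorylates eIF2, which slows translation while favouring that of ATF4. The kinase GCN2 feeds the same ATF4 arm when amino acids are short. ATF4 then induces genes that make or import amino acids, and, under lasting stress, DDIT3 (CHOP) and TRIB3. Much of this control acts on protein, splicing or translation, which the arrays did not measure, since each value here is a transcript's log2 ratio of SB over SCt.

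The knockdown was seen on every array. MTDH had log2 ratios of -3.18, -3.01, -3.12 and -3.41 on arrays 1 to 4, a 9.07-fold lower level in SB cells (limma, adjusted p = 5.19e-10). All 9 of 9 squamous markers were well above background in both channels of every array, and so were 3 of 7 fibroblast, 5 of 5 leukocyte and 4 of 4 endothelial markers, 0 of which passed the test, so that this detection flag did not separate cell types; of the fibroblast markers, 2 (COL3A1 and LUM) were well above background on no array.

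Among the 39 members, 4 fell in SB cells past an adjusted p of 0.05 and 0 rose: ASNS, PSAT1, ATF4 and DNAJB11, by 0.30 to 0.36 on the log2 scale. In such bulk RNA, fewer cells that express a gene and less RNA of it per cell cannot be told apart. The p was that of limma's moderated test of the mean log2 ratio against 0, adjusted by the Benjamini-Hochberg method over all 28505 probes kept, and each gene was read from its brightest probe. Of all genes tested, 2.97% were called lower and 1.22% higher by the same rule. At an unadjusted p under 0.05, 12 members were lower and 2 higher, against 11.3% and 8.46% of all genes. On all 4 arrays alike, 11 members were lower and 2 higher, and 14.7% and 12.8% of all genes were. Because the members were chosen with earlier results of these data known, these counts are no test of the list against all genes. The lower calls depended on array 3: without it, 0 members were called and 0.622% of all genes were called lower, whereas without array 4 there were 11 members called lower, beside 4.72% of all genes. The median over all 39 members was -0.01, and that over all genes 0.00.

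**Figure D1:**
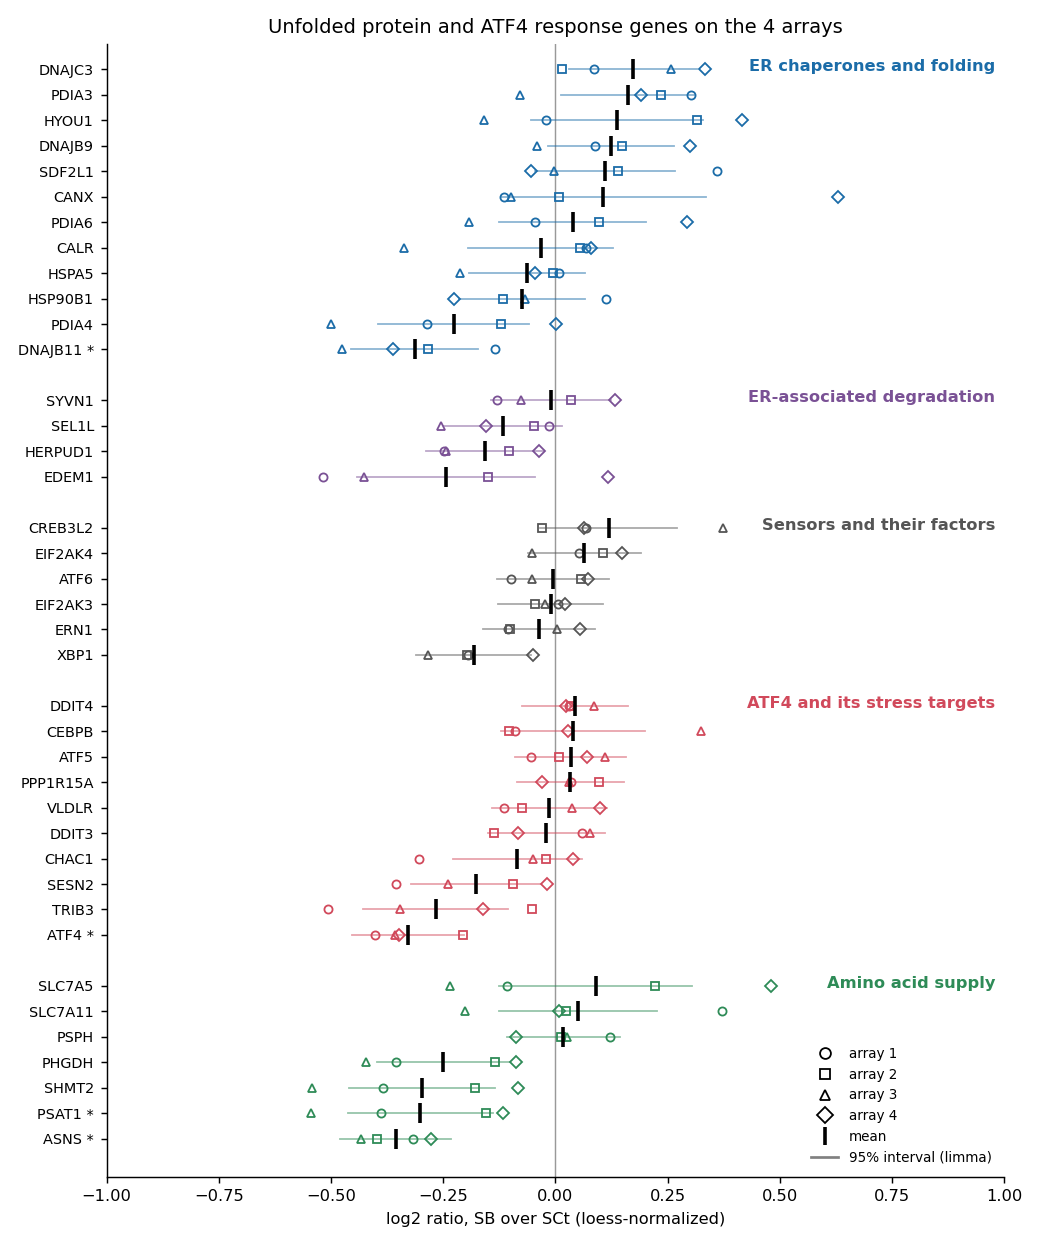
Log2 ratio of SB over SCt for each of the 39 members on each of the 4 arrays (open symbols), with the mean (black bar) and limma's 95% interval (line), grouped by role; an asterisk marks an adjusted p under 0.05. The 4 members with an asterisk had all 4 arrays below 0, while most chaperones and sensors had arrays on both sides of it.

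The amino acid group had the lowest median of the 5 role groups, -0.25 over its 7 measured genes. Its medians on arrays 1 to 4 were -0.32, -0.13, -0.42 and -0.09, all below 0, with arrays 1 and 3 lower than arrays 2 and 4. Of the 7 genes, 2 fell, 0 rose, and 4 were below 0 on every array. These values are after loess, and after median centring the group's median was -0.05, beside -0.04 for the ERAD genes.

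ASNS encodes asparagine synthetase, which makes asparagine from aspartate and glutamine and is a textbook target of ATF4. Its log2 ratios were -0.32, -0.40, -0.43 and -0.28, a mean of -0.36 ± 0.07 (SD, n = 4), or 1.28-fold lower in SB cells. The 4 arrays lay close together and none came near 0. The 95% interval was -0.48 to -0.23, and limma's adjusted p was 0.00552. It was the one member called lower both after loess and after median centring of each array, where it stood at -0.18 (limma, adjusted p = 0.0446). The call was lost without array 3 (limma, adjusted p = 0.0645).

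The other genes of the group with every array below 0 belong to serine synthesis and its use. PSAT1, the aminotransferase of the serine pathway, had log2 ratios of -0.39, -0.15, -0.54 and -0.12, a mean of -0.30 ± 0.20 (SD, n = 4; limma, adjusted p = 0.0477). SHMT2, the mitochondrial enzyme that converts serine to glycine, stood just outside the threshold, with -0.38, -0.18, -0.54 and -0.08, a mean of -0.30 ± 0.21 (SD, n = 4; limma, adjusted p = 0.0519). PHGDH, which opens the serine pathway, had -0.35, -0.13, -0.42 and -0.09, a mean of -0.25 ± 0.16 (SD, n = 4; limma, adjusted p = 0.0674). In all of these genes arrays 1 and 3 were the low ones and arrays 2 and 4 the high ones, and no array was above 0. The PSAT1 call was the least stable of the 4: it was lost under 11 of 15 other settings. After median centring PSAT1 stood at -0.17 (limma, adjusted p = 0.104) and PHGDH at -0.12 (limma, adjusted p = 0.199). SHMT2 stood at -0.05 by that setting (limma, adjusted p = 0.61).

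The remaining enzyme and the transporters did not share this. PSPH, the last step of the serine pathway, had log2 ratios between -0.09 and 0.12 around a mean of 0.02. SLC7A11, the cystine transporter xCT, ranged from -0.20 to 0.37. SLC7A5, the large neutral amino acid transporter LAT1, ranged from -0.24 on array 3 to 0.48 on array 4, a mean of 0.09 ± 0.32 (SD, n = 4; limma, adjusted p = 0.681). In these genes the arrays lay on both sides of 0, and none passed the test. After median centring SLC7A5 was called higher, at 0.28 (limma, adjusted p = 0.033).

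**Figure D2:**
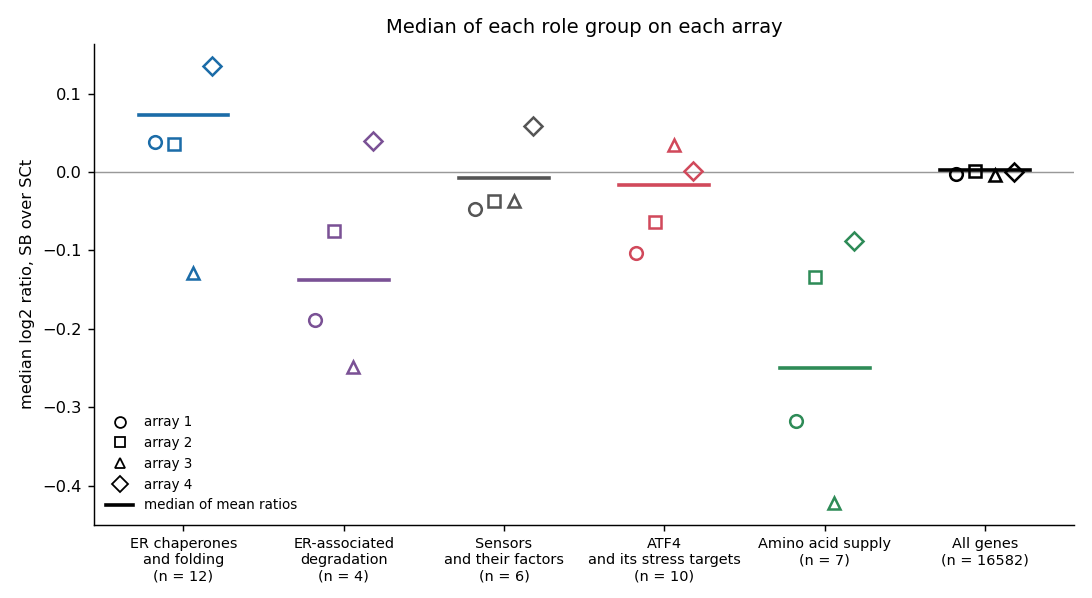
Median log2 ratio of SB over SCt of each role group on each array (symbols) and the median of the genes' mean ratios (bars), with all genes at the right; n is the number of genes measured. The amino acid group lay below 0 on all 4 arrays, from -0.42 to -0.09, and all other role groups had arrays on both sides of 0.

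ATF4 itself fell, while none of the 9 stress targets grouped with it passed the test. Its log2 ratios were -0.40, -0.21, -0.36 and -0.35, a mean of -0.33 ± 0.08 (SD, n = 4), or 1.26-fold lower (limma, adjusted p = 0.00948). All 4 arrays were below 0, and array 2 was the nearest to it. ATF4 is a very bright transcript, at the 97.8 percentile of all genes by level, and the size of its change rests on the correction for brightness: after median centring, which left the brightest 3317 genes with a median of 0.21, its mean was -0.01 (limma, adjusted p = 0.938). It kept the call in the scanner software's own dye-normalized ratios, at -0.34 (limma, adjusted p = 0.028), and lost it without array 3 (limma, adjusted p = 0.089). The software's ratios come from the same spots and are no separate test of the correction for brightness.

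Of the 9 other genes of this group, 0 passed the test. TRIB3, a pseudokinase induced by ATF4 and CHOP, came nearest, with log2 ratios of -0.51, -0.05, -0.35 and -0.16, a mean of -0.27 ± 0.20 (SD, n = 4; limma, adjusted p = 0.0738). SESN2, a leucine-binding inhibitor of mTORC1 signalling, had -0.36, -0.09, -0.24 and -0.02, a mean of -0.18 ± 0.15 (SD, n = 4; limma, adjusted p = 0.168). Both were below 0 on all arrays, and both were lowest on array 1. CHAC1, a glutathione-degrading enzyme, had -0.30 on array 1 and between -0.05 and 0.04 on the others, for a mean of -0.08, and its dimmer probe gave -0.04.

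Genes that feed back on the response or carry it further lay close to 0. DDIT3, the transcription factor CHOP, had a mean of -0.02 with arrays from -0.14 to 0.08. PPP1R15A (GADD34), the phosphatase subunit that reverses eIF2 phosphorylation, ranged from -0.03 to 0.10 around a mean of 0.03. DDIT4 (REDD1), a stress-induced mTORC1 inhibitor, was above 0 on every array, by 0.02 to 0.09. After loess these 3 genes had 95% intervals that all lay within -0.15 and 0.16, short of the change of ATF4. Such intervals reflect the spread between arrays, not the choice of normalization. After median centring DDIT4 stood at 0.20 (limma, adjusted p = 0.0277), outside its interval, and ATF4 at -0.01.

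The transcription factors ATF5 and CEBPB and the lipoprotein receptor VLDLR had means of 0.03, 0.04 and -0.01. The dimmer VLDLR probe gave -0.12, with all 4 arrays below 0 (limma, adjusted p = 0.278). CEBPB was spread more widely than ATF5, because array 3 stood at 0.33 and the other arrays between -0.10 and 0.03. The group's median was -0.02, with array medians of -0.10, -0.06, 0.03 and 0.00, and after median centring it was 0.05.

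A CARE, the composite element that ATF4 binds with a C/EBP partner, was looked for in RefSeq promoters (build GRCh38.p14), from 250 bases before to 50 after each gene's start, as TGATGNAA on either strand. Of the 36 members with such a promoter (all but PDIA3, PSPH, SHMT2 and SLC7A11), 5 held a match (13.9%), against 4.46% of 27305 genes. Of the 80 other pathway genes with a promoter, 15 did (18.8%). Both lists were chosen as known pathway genes, so these shares describe the lists and not the knockdown. The matches upstream of the start are shown with the element in capitals, 5′ to 3′ on the gene's strand, because they set the member with the lowest mean beside others that passed no threshold.
ASNS, chr7:97872454-97872491, minus strand: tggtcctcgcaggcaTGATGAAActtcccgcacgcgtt
CHAC1, chr15:40953247-40953284, plus strand: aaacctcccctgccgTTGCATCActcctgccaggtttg
HERPUD1, chr16:56931951-56931988, plus strand: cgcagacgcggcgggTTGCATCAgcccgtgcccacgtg

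The ASNS element began 68 bases before the start, those of CHAC1 and HERPUD1 at 209 and 176 bases and in the reverse direction. The matches in CREB3L2 and SLC3A2 lay after the start, and SLC3A2 had no measured ratio. ASNS, with its element, fell, whereas CHAC1 and HERPUD1 had means of -0.08 and -0.16 that did not pass the test. ATF4, PSAT1 and DNAJB11, the other members called lower, had no match in this window.

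The ER chaperones did not share a direction: their median was 0.07, with array medians of 0.04, 0.04, -0.13 and 0.14. Of the 12 genes, 1 fell, 0 rose, 7 had a mean above 0 and 5 below. Of the 12, 6 lay among the brightest 3317 of the 16582 genes, and the group's median moved to 0.24 after median centring, where those 3317 genes had a median of 0.21.

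DNAJB11 (ERdj3), a soluble co-chaperone that hands unfolded proteins to BiP, was the exception. Its log2 ratios were -0.14, -0.28, -0.48 and -0.36, a mean of -0.31 ± 0.14 (SD, n = 4), or 1.24-fold lower (limma, adjusted p = 0.0208). All arrays were below 0, with array 3 the lowest and array 1 nearest to 0. In the software's ratios the mean was -0.34 and just missed the threshold (limma, adjusted p = 0.0504), after median centring it was -0.10 (limma, adjusted p = 0.287), and the call was lost without array 2 (limma, adjusted p = 0.0812) or array 3 (limma, adjusted p = 0.157).

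HSPA5 (BiP), the ER Hsp70 whose mRNA is the usual gauge of ER stress, stood near 0. Its log2 ratios were 0.01, -0.01, -0.21 and -0.05, a mean of -0.06 ± 0.10 (SD, n = 4; limma, adjusted p = 0.614). Array 3 was the low one, and the 95% interval after loess, -0.19 to 0.07, held 0 but not a change as large as that of DNAJB11. That interval reflects the spread between arrays, not the choice of normalization. HSPA5 was read from 1 probe, at the 45.7 percentile of all genes by level, against 99.2 for HSP90B1 and 98.3 for CALR. How well that probe follows the transcript was not tested. HSP90B1 (GRP94), the ER Hsp90, had -0.07 ± 0.14 (SD, n = 4) from its brightest probe and -0.06 from the second.

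The other DnaJ co-chaperones had means above 0, unlike DNAJB11, but neither passed the test. DNAJC3 (p58IPK), which also inhibits PERK, had log2 ratios of 0.09, 0.02, 0.26 and 0.33, a mean of 0.17 ± 0.15 (SD, n = 4; limma, adjusted p = 0.175). It was the one chaperone above 0 on every array. DNAJB9 (ERdj4), a co-chaperone that acts on IRE1, had a mean of 0.12 with arrays from -0.04 to 0.30 (limma, adjusted p = 0.332).

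The disulfide isomerases were not alike. PDIA4 (ERp72) had log2 ratios of -0.29, -0.12, -0.50 and 0.00, a mean of -0.23 ± 0.22 (SD, n = 4; limma, adjusted p = 0.135), with array 3 far below array 4. PDIA3 (ERp57), the partner of the lectin chaperones, had a mean of 0.16 ± 0.17 (SD, n = 4) from its brightest probe and -0.12 from the dimmer one. PDIA6, an isomerase that also acts on IRE1, had a mean of 0.04 with arrays from -0.19 to 0.29. None of these passed the test, and the probes of PDIA3 disagreed in sign.

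CALR and CANX, the lectin chaperones that hold glycoproteins, each had an array apart from the rest. CALR was at 0.07, 0.06 and 0.08 on arrays 1, 2 and 4 and at -0.34 on array 3. CANX was at -0.11, 0.01 and -0.10 on arrays 1 to 3 and at 0.63 on array 4, and its dimmer probe had a mean of -0.08. Neither passed the test, and the array that stood apart was not the same.

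HYOU1 (GRP170), the nucleotide exchange factor of BiP, had a mean of 0.14 with arrays from -0.16 to 0.42. SDF2L1, part of the ER chaperone complex, had a mean of 0.11 with arrays from -0.06 to 0.36. The signs of the chaperones depended on the scaling: after median centring CALR, at 0.30, and HSP90B1, at 0.31, turned from below 0 to called higher, and in all 11 members were called higher and 1 lower. By that setting 20.3% of all genes were called higher and 10.1% lower, so that the higher calls of the members stood beside a high background. The other 9 of those 11 members were CANX, DNAJC3, PDIA3, PDIA6, SDF2L1, CREB3L2, ATF5, DDIT4 and SLC7A5, all with means above 0 after loess as well.

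**Figure D3:**
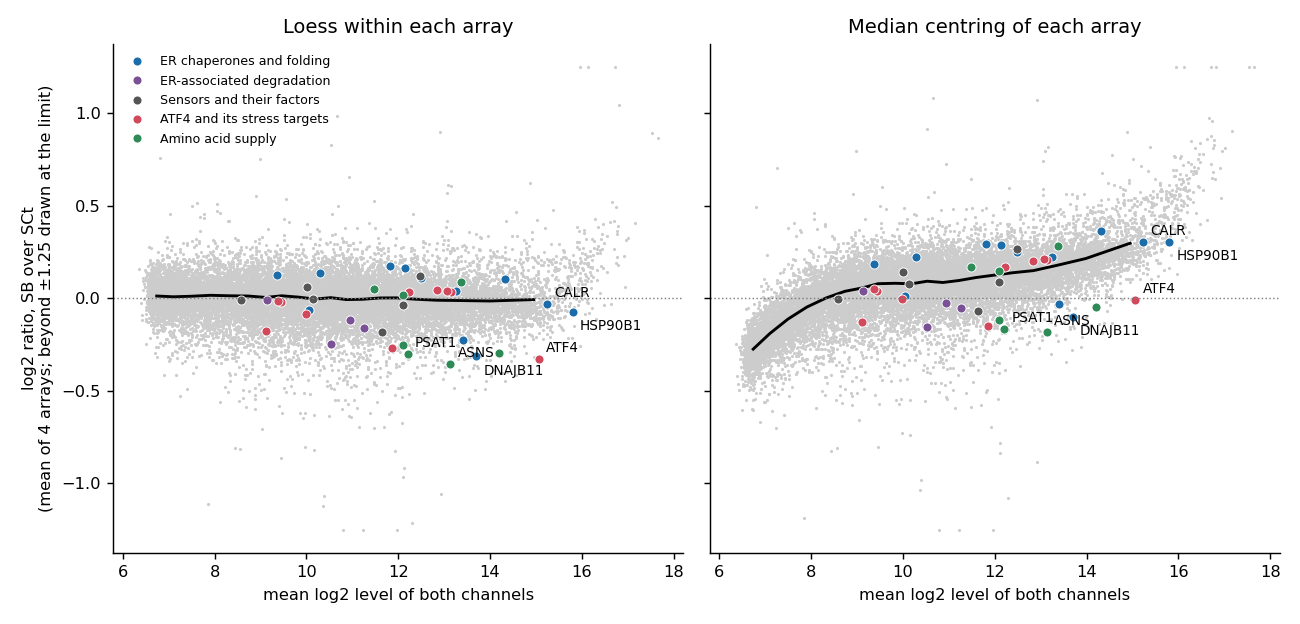
Mean log2 ratio of SB over SCt against the mean log2 level of both channels for all 16582 genes (grey), with the members coloured by role and the running median as a black line, after loess (left) and after median centring (right). After median centring the running median climbs with brightness and takes the bright members with it; ASNS, PSAT1, ATF4 and DNAJB11 lie below the line in both panels.

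Elements of the ER stress response were looked for in the same promoters: ERSE, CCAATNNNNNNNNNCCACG, which ATF6 and NF-Y occupy, and ERSE-II, ATTGG and CCACG with any single base between them, on both strands. ERSE was found in 6 of the 36 members with a promoter (16.7%) and in 0.0916% of all genes. ERSE-II was found in 3 of the 36 (8.33%) and in 0.0696% of all genes. The members were chosen as known genes of this response, so these shares describe the list and not the knockdown. No member held both. A match of each gene is shown in capitals, since these elements are known to mark genes that the ATF6 arm drives.
HSPA5 ERSE, chr9:125241376-125241424, minus strand: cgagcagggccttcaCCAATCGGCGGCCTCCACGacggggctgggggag
HSP90B1 ERSE, chr12:103930201-103930249, plus strand: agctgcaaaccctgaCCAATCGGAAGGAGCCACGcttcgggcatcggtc
CALR ERSE, chr19:12938369-12938417, plus strand: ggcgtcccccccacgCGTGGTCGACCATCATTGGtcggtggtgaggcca
CANX ERSE, chr5:179698763-179698811, plus strand: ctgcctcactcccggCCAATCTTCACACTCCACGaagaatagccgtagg
PDIA6 ERSE, chr2:10812838-10812886, minus strand: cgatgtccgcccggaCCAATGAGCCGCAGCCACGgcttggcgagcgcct
XBP1 ERSE, chr22:28800588-28800636, minus strand: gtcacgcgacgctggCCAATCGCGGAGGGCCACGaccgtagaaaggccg
HERPUD1 ERSE-II, chr16:56932010-56932050, plus strand: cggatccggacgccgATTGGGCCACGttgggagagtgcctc
HYOU1 ERSE-II, chr11:119057259-119057299, minus strand: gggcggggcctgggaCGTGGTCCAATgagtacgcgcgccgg
SDF2L1 ERSE-II, chr22:21642099-21642139, plus strand: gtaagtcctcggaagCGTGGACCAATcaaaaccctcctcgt

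These were the 9 members with ERSE or ERSE-II, and 0 of them passed the test in either direction after loess. Of all genes, 2.97% were called lower and 1.22% higher, so that 0 of 9 is near the background. After median centring CALR, CANX, HSP90B1, PDIA6 and SDF2L1 were called higher, beside 20.3% of all genes. The loess means of the 9 members ran from -0.18 for XBP1 to 0.14 for HYOU1. The HSPA5 element began 66 bases before the start and that of XBP1 at 52 bases. HSP90B1 and HYOU1 each held a second match, and in CALR, HYOU1 and SDF2L1 the match ran in the reverse direction. DNAJB11, the chaperone called lower, had no match to either element in this window.

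After loess the ERAD genes, each read from its brightest probe, had means below 0 in 4 of 4 cases and 0 passed the test. Their median was -0.14, with array medians of -0.19, -0.07, -0.25 and 0.04. After median centring the median was -0.04. EDEM1, a lectin that draws misfolded glycoproteins from the ER, had log2 ratios of -0.52, -0.15, -0.43 and 0.12, a mean of -0.24 ± 0.29 (SD, n = 4; limma, adjusted p = 0.169). Array 4 was above 0 there and the other arrays below it. HERPUD1, a stress-induced membrane protein of the ERAD complex, had -0.25, -0.10, -0.24 and -0.04, a mean of -0.16 ± 0.10 (SD, n = 4; limma, adjusted p = 0.177). SEL1L, the adaptor of the HRD1 ubiquitin ligase, had a mean of -0.12 ± 0.11 (SD, n = 4; limma, adjusted p = 0.323) from its brightest probe, with all arrays below 0. Its other probe had a mean of 0.23, with all arrays above 0 (limma, adjusted p = 0.08). After median centring that probe stood at 0.30 (limma, adjusted p = 0.0104). SYVN1, the ligase HRD1 itself, had a mean of -0.01 with arrays from -0.13 to 0.13, and 0.04 after median centring. The opposite signs of the SEL1L probes leave its direction unsettled.

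The transcripts of the sensors lay near 0. EIF2AK3, which encodes PERK, had log2 ratios of 0.01, -0.05, -0.02 and 0.02, the narrowest spread of the members together with DDIT4 (SD 0.03, n = 4). ERN1, which encodes IRE1, had a mean of -0.04 with arrays from -0.11 to 0.06, and ATF6 a mean of -0.01 with arrays from -0.10 to 0.07. EIF2AK4, which encodes GCN2, had 0.05, 0.11, -0.05 and 0.15, a mean of 0.06 ± 0.09 (SD, n = 4; limma, adjusted p = 0.601). None passed the test, and each had arrays on both sides of 0.

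Among the 6 genes grouped as sensors and their factors, XBP1 had the lowest mean. Its log2 ratios were -0.20, -0.20, -0.28 and -0.05, a mean of -0.18 ± 0.10 (SD, n = 4; limma, adjusted p = 0.117), all below 0 but past no threshold. The probe does not tell the spliced from the unspliced form, as far as the files say. CREB3L2, an ER-bound factor cleaved in the manner of ATF6, had 0.07, -0.03, 0.37 and 0.06, a mean of 0.12 ± 0.18 (SD, n = 4; limma, adjusted p = 0.395), with array 3 apart and a dimmer probe at -0.13. The median of the 6 genes was -0.01, and 0.08 after median centring.

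Beyond the members, 94 further genes of the same pathways were listed by name, with earlier results of these data known. Of these, 90 were tested, of which 2 fell and 2 rose. Of all genes, 2.97% were called lower and 1.22% higher, so that these counts were near the background. The largest single changes among the listed genes were found here. MTHFD2, the mitochondrial folate enzyme that uses the one-carbon units of serine and an ATF4 target, had log2 ratios of -1.15, -0.94, -1.05 and -0.72, a mean of -0.97 ± 0.19 (SD, n = 4), or 1.95-fold lower (limma, adjusted p = 2.58e-05). NIBAN1, a stress-induced gene downstream of ATF4, had -0.56, -0.69, -0.74 and -0.71, a mean of -0.67 ± 0.08 (SD, n = 4), or 1.59-fold lower (limma, adjusted p = 7.91e-05). In both genes every array was well below 0, and both remained called after median centring, at -0.84 (limma, adjusted p = 2.93e-05) and -0.54 (limma, adjusted p = 0.000355).

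The genes that rose did so by less. NUPR1, a small stress-induced chromatin protein, was also on the list of ATF4 targets. It had log2 ratios of 0.29, 0.32, 0.33 and 0.10, a mean of 0.26 ± 0.11 (SD, n = 4; limma, adjusted p = 0.0372). SSR3, a subunit of the translocon-associated complex, had 0.25, 0.15, 0.27 and 0.23, a mean of 0.22 ± 0.05 (SD, n = 4; limma, adjusted p = 0.0461). All arrays were above 0 in both, and both calls were lost without array 1, 2 or 3, and in the software's ratios (limma, adjusted p = 0.0555 and 0.122). After median centring NUPR1, at 0.32 (limma, adjusted p = 0.00582), and SSR3, at 0.32 (limma, adjusted p = 0.00489), remained called. By that setting 20.3% of all genes were called higher.

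By list, the 22 other ATF4 targets had a median of -0.07 with 2 lower and 1 higher. The 11 measured tRNA synthetases, many of which ATF4 induces, had a median of -0.11 with array medians of -0.25, -0.02, -0.24 and 0.11, and 0 called. Of the 16 other folding genes and the 11 other ERAD genes 0 were called, with medians of 0.01 and -0.03. The 13 genes of the translocon had a median of -0.06 with 1 called, the 9 other sensors and regulators 0.06 and the 8 measured genes of eIF2, its exchange factor and its phosphatase subunit PPP1R15B -0.07, with 0 called in both. Arrays 1 and 3 gave the lowest medians in the tRNA synthetases, as they did in the amino acid genes and in ERAD.

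**Figure D4:**
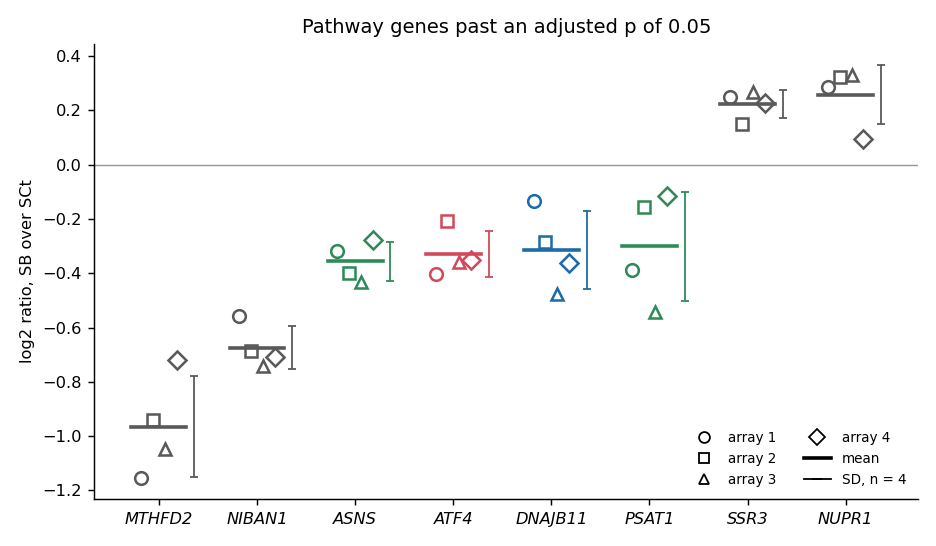
Log2 ratio of SB over SCt on each array (symbols) for the 8 genes of the pathway past an adjusted p of 0.05, members in colour and other pathway genes in grey, with the mean (bar) and SD (error bar, n = 4). MTHFD2 at -0.97 and NIBAN1 at -0.67 lie below the 4 members, which sit between -0.36 and -0.30.

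**Figure D5:**
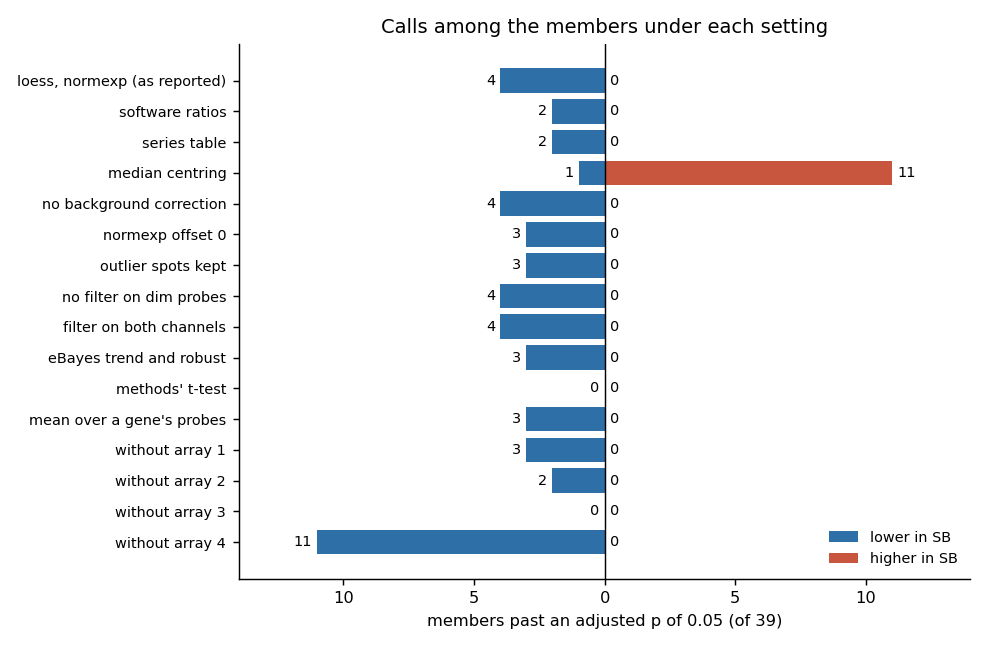
Number of the 39 members past an adjusted p of 0.05, lower (left) and higher (right) in SB cells, under each setting of the processing. The count of lower calls was 4 as reported, 0 under 2 settings of which 1 was leaving out array 3, and 11 without array 4, and median centring was the one setting with higher calls.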

How the data were processed

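The data were 4 Agilent 44K 2-colour expression arrays of SAS cells, SB (red) against SCt (green). Per the file headers, the authors deposited scanner output of Agilent Feature Extraction 10.5.1.1, with spot intensity, background and a log10 ratio for each spot, and a series table of log2 ratios that equals those ratios within 0.001 on the log2 scale for 97.6 to 97.9% of probes.

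From the median spot intensities, the background was corrected with normexp (offset 50, limma 3.58.1 in R 4.3.3), a loess curve was taken from each array's ratios, 1377 control spots and the 1.89 to 2.71% of spots marked as outliers were left out, and spots were averaged by probe. Of 34127 probes, 28505 had a signal that the software marked as well above background, for SB or for SCt, throughout the 4 arrays, and at least 2 values. These were fitted with lmFit and eBayes against a ratio of 0. Of the probes, 24826 were named through the RefSeq gene table (GRCh38.p14). The array number, 4 on 1 slide and in 1 scan, limits the precision: an exact sign-flip test of 4 arrays has a smallest two-sided p of 0.125. No spot was saturated (0 spots). A median is of mean log2 ratios over genes. The steps were tested on simulated data, where 8 of 50 probes (16%) with a true log2 change of 0.3 were called. At a true change of 0.5, 34 of 48 (70.8%) were. A member without a call may therefore still have changed by about 0.3.

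The members and gene lists were chosen with earlier results of these data known. All members were accounted for, with full statistics for those past an adjusted p of 0.05 and for the 3 of each role with the largest mean ratio in size; of other pathway genes, those past 0.05 were named. Other settings were median centring, the ratios of the scanner software or of the series table, background and outlier handling, the filter, the trend and robust fit, a t-test, the mean over probes, and leaving out each array. Protein sequences were not analysed here.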

Additional observations from a re-analysis of the deposited data

Results flagged for a closer look

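Among the 39 members, 2 had an array that stood apart from the other arrays by Dixon's test, which by chance flags about 1 gene in 20. For CALR the gap was 0.941 of the range: array 3 was at -0.34 and the other arrays between 0.06 and 0.08. For CANX the gap was 0.836 of the range: array 4 was at 0.63 and the other arrays between -0.11 and 0.01.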

How the results depend on the processing

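Of the members called lower, ASNS kept its call under 13 of 15 other settings, ATF4 under 12, DNAJB11 under 9 and PSAT1 under 4. The software's ratios and the series table each called 2 members (ASNS and ATF4, lower), the t-test 0 (4 at an unadjusted p under 0.05), and median centring 12, of which 1 was lower and 11 higher, with CALR (0.30) and HSP90B1 (0.31) reversed. Median centring took the share of all called genes that were lower from 70.9% to 33.4%, and moved the medians of the chaperones to 0.24, the sensors to 0.0833, the ATF4 group to 0.0469 and the amino acid group to -0.0475. Leaving out each array gave 0 (array 3) to 11 (array 4) members called, all lower. The counts of other pathway genes under these settings were added after seeing the data. Of these, 0 were called higher with the software's ratios, the series table, normexp offset 0, the trend and robust fit and the t-test, 1 without background correction or with outlier spots kept, and 20 after median centring. The lower count was 4 with a gene's probes averaged and 0 by the t-test. Leaving out each array gave 2 to 8 lower (8 without array 4) and 0 to 2 higher (0 without array 1, 2 or 3). The other settings left every count of members and of other pathway genes within the bounds set for an unchanged count. No paired analysis was possible because each array is already a ratio of SB to SCt and there is 1 group of 4 arrays.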
